A study of Mus musculus with 20 samples.

Results

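The genes described here carry phosphate into the kidney's proximal tubule cell or act on that transport: the sodium-phosphate cotransporters Slc34a1 and Slc20a1, the scaffold protein gene Pdzk1, its binding partner Pdzk1ip1, and Pth1r, the receptor for parathyroid hormone. Members were all probe sets that the platform annotation gave to 1 of these 5 genes alone, which were 6 of the 12422 probe sets on the array, for 5 of the 8251 genes that probe sets name alone: 1 each for Slc34a1 (101552), Slc20a1 (103065), Pdzk1ip1 (96935) and Pth1r (98482), and 2 for Pdzk1 (97287 and 97288). All 6 passed the filter on dim probe sets. RNA from kidneys of C57BL/6J mice was measured on 20 arrays, each hybridised with a pool of 3 animals. Normal and Hyp animals were each fed either a control or a low phosphate diet, which gives 4 groups of 5 arrays. In every group 2 arrays came from male pools fed for 5 days, and 1 each from a female pool fed for 5 days, a male pool fed for 3 days and a female pool fed for 3 days. The Hyp allele is an inherited mutation of Phex on the X chromosome, used to model the human disease X-linked hypophosphatemia. Age and the number of mutant copies in Hyp females are not given in the labels, and the measurement was of whole kidney, so fewer cells of a type and less RNA per cell cannot be told apart.

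Phosphate filtered at the glomerulus is taken back by the proximal tubule, mostly through the cotransporter that Slc34a1 encodes in the brush border membrane, while the Slc20a1 product is a more widely expressed cotransporter. The Pdzk1 protein binds the tails of membrane transporters, the Slc34a1 product among them, through its PDZ domains, and the Pdzk1ip1 product is a small membrane protein that binds Pdzk1. Parathyroid hormone, acting through Pth1r, and the hormone FGF23 both lower phosphate uptake by withdrawing the cotransporter from the membrane, and a low phosphate diet has the opposite effect. In Hyp mice FGF23 is in excess and phosphate is lost in the urine. Much of this control acts on the protein, which these arrays did not measure.

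The sequences before the annotated starts of Slc34a1, Pth1r and Slc20a1 are shown because the first 2 genes have the smallest p-values for genotype averaged over diets and the third is the other cotransporter. They are the 250 bases before the start, 5′ to 3′ on the gene's strand, from RefSeq on GRCm38.p6, at chr13:55399398-55399647 (plus strand) for Slc34a1, chr9:110747146-110747395 (minus strand, the most upstream of 3 annotated starts) for Pth1r and chr2:129198523-129198772 (plus strand, the first of 2 starts) for Slc20a1. Capitals mark matches, on either strand, to 3 motifs that do not overlap one another here. The first is GTTAAT, the core of the site that HNF1 factors read. The second is the box of letters TATAAA found before many start sites. The third is the E-box CACGTG.
Slc34a1: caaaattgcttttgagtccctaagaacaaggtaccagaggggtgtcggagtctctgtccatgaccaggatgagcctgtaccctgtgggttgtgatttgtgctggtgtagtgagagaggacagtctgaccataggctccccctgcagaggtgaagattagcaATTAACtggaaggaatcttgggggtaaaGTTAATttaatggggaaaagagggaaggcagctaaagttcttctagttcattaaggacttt
Pth1r: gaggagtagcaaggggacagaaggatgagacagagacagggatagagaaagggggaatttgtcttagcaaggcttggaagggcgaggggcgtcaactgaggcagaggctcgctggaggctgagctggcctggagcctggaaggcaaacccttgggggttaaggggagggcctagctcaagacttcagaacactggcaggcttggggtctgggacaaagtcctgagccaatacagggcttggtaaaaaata
Slc20a1: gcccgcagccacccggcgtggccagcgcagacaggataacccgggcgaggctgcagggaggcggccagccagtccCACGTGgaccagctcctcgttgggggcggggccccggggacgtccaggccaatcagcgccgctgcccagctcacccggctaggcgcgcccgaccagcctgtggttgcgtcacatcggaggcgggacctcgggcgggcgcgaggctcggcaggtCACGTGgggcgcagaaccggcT
The Slc34a1 stretch held 2 copies of GTTAAT, one on each strand, beginning 89 and 61 bases before the start. Of 32851 RefSeq promoter windows of 300 bases (250 before to 50 after the start), 7.10% held GTTAAT and 0.548% held 2 or more copies. The Slc20a1 stretch held 2 copies of CACGTG, a motif in 7.15% of the windows, with 2 or more copies in 0.594%. The Pth1r stretch held none of the 3 motifs. TATAAA, in 13.6% of windows, lay 16 bases after the annotated start of Slc34a1, so that distances from that start may not be distances from the start in use, and it began 1 base before that of Slc20a1, whose stretch therefore ends in its first letter. The single window of Pdzk1ip1 held 1 CACGTG, and the 2 windows of Pdzk1 and the other 2 of Pth1r held none of the motifs. A match of letters shows no binding, and these arrays measured none.

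Some properties of the arrays touch the values below. Intensities had been scaled by the authors to a common trimmed mean (500.254 to 500.309). Phex itself was dim, with group means of 24.6 to 62.3, so it did not check the genotype labels. Xist (lowest female 1305.7, highest male 60.9) and the Y-linked Eif2s3y (lowest male 156.3, highest female 91.1) matched the labelled sex on all 20 arrays. The title numbers fall into runs, called array sets here: 01 to 04, 05 to 08, 09 and 10, 11 to 14, 15 to 18, and 19 and 20. The 3′ to 5′ actin ratio, a measure of RNA integrity, was 1.74 to 2.61 in the pools of females at 5 days (05 to 08) and 1.22 to 1.98 on the other 16 arrays; 3 of those 4 pools were above all the others, and array 05 (1.74) was not. Their median rank correlation with the rest of the arrays was 0.895 to 0.934, against 0.943 to 0.969. The second male set at 5 days is split by genotype, since 09 and 10 are Hyp pools and 19 and 20 are normal ones. The summed intensity of the 18 proximal tubule markers on the array ran from 101372 to 118124 in normal mice on control diet and 110161 to 121984 on low phosphate diet. In Hyp mice it ran from 92731 to 110606 on control diet and 96690 to 118865 on low phosphate diet.

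In the next paragraphs the values of a group are given in 1 order: the male pools of the first and second set at 5 days, the female pool at 5 days, the male pool at 3 days and the female pool at 3 days. Differences are on the scale of log2(intensity + 38) with their standard error (SE) from limma, in a model that held terms for group and for each combination of sex and days, and adjusted p-values are Benjamini-Hochberg values over 8695 probe sets, called where under 0.05.

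For Slc34a1, the main cotransporter, neither the difference between diets nor that between genotypes passed the test, the latter narrowly when both diets were averaged (adjusted p = 0.0542 in limma). Its intensities in normal mice on control diet were 12265.7, 15864.3, 11594.4, 15395.6 and 13949.8, and on low phosphate diet 14129.7, 16834.9, 14032.9, 17165.9 and 15640.4. Each of the 5 low phosphate pools was above the control pool of the same set, by 0.09 to 0.27 on the log2 scale, while the sets themselves differed more and the groups overlapped. In Hyp mice the values were 10893, 9333.1, 11792, 12551.1 and 12917.2 on control diet and 12290, 12048.6, 8769.5, 12453.2 and 13832.3 on low phosphate diet. Here 3 of 5 pairs were higher on low phosphate, and the female pair at 5 days went the other way by 0.43. On low phosphate diet the highest Hyp pool (13832.3) was below the lowest normal pool (14032.9), so these groups did not overlap, which held for 0.828% of all probe sets tested. On control diet the groups overlapped.

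Slc20a1, the second cotransporter, showed no ordering by group. Its intensities in normal mice were 376.9, 482, 368.5, 377.1 and 434.6 on control diet and 283.6, 400.4, 492, 389.6 and 418.6 on low phosphate diet. In Hyp mice they were 298.7, 312.7, 424.4, 370.3 and 376.7 on control diet and 410.8, 286.5, 468.6, 377 and 324.1 on low phosphate diet. The 4 groups overlapped throughout, with means between 356.6 ± 51.2 (SD, n = 5, Hyp on control diet) and 407.8 ± 49.2 (SD, n = 5, normal on control diet).

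The scaffold gene Pdzk1 was measured by 2 probe sets that did not behave alike. Probe set 97288 was steady: normal mice read 7665.8, 7070.9, 7644.9, 7382.6 and 7094.5 on control diet and 7169.2, 6724.7, 6406.7, 6907.7 and 6635 on low phosphate diet. Every low phosphate pool was below its control, by 0.07 to 0.25 on the log2 scale, and only 1 of them (7169.2) lay within the control range. Hyp mice read 6499.1, 7803.6, 6747.9, 6125.4 and 5968.3 on control diet and 6234.4, 8185.1, 5515.4, 5792.6 and 6037.6 on low phosphate diet. The 2 highest Hyp values came from arrays 09 and 10, which have no normal pool in their set. On each diet the Hyp and normal groups overlapped. Within a group the coefficient of variation of this probe set was 3.89% to 16.7%.

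Probe set 97287 of Pdzk1 varied more, with coefficients of variation of 31.6% to 53.0% within groups. Its intensities in normal mice were 2283.7, 2633.6, 1107.6, 2021.8 and 1531 on control diet and 2716.2, 1305.5, 568.3, 2265 and 1967.5 on low phosphate diet. In Hyp mice they were 2124.2, 1354.8, 898.2, 1792 and 1260.9 on control diet and 2598.3, 1523.8, 754.4, 1175 and 897.7 on low phosphate diet. The female pool at 5 days was the lowest of all 5 in each group. Stratum means ran from 832 (females at 5 days) to 2068 (males at 5 days), a wider range than the group means of 1390 to 1916.

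Pdzk1ip1, the gene for the Pdzk1 partner, read 7842.1, 7908.7, 7551.1, 7676.3 and 8841.7 in normal mice on control diet and 9430.4, 8837.3, 8366, 9078.1 and 9440.5 on low phosphate diet. All 5 low phosphate pools were above their controls, by 0.09 to 0.26 on the log2 scale. The groups overlapped, since the female control pool at 3 days (8841.7) was above the lowest low phosphate pool (8366). In Hyp mice the gene read 8735.3, 6237.6, 6474.9, 7051.5 and 8074.4 on control diet and 8526.9, 6648.9, 6714.5, 8021.6 and 9225.8 on low phosphate diet. There 4 of 5 pairs were higher on low phosphate, by at most 0.19, and the groups overlapped almost fully.

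Pth1r, the parathyroid hormone receptor gene, was lower in Hyp kidneys in every array set that held both genotypes. Normal mice read 5563.3, 6140.2, 3318.2, 5343.6 and 4415.9 on control diet and 5721.8, 6080.5, 2209.8, 7738 and 4976.8 on low phosphate diet. Hyp mice read 2648.5, 2981.8, 2219.9, 4314.2 and 4207.6 on control diet and 4420.9, 2626.6, 1957.6, 4684.9 and 3377.4 on low phosphate diet. The female pool at 5 days was the lowest of the 5 in each group, and on each diet the lowest normal pool lay within the Hyp range.

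**Figure D1:**
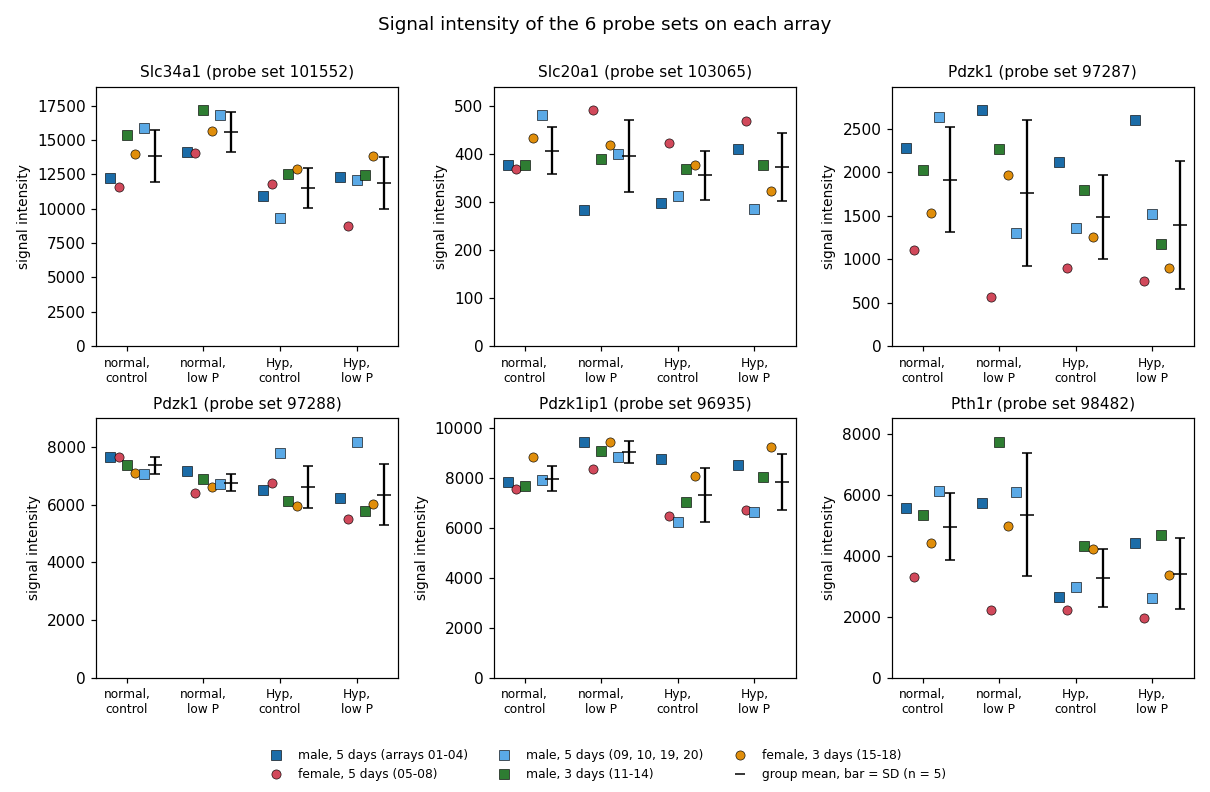
Signal intensity (linear scale, from 0) of each of the 6 probe sets on all 20 arrays, by group; squares are male and circles female pools, colours mark sex, days and array set, and bars show the group mean and SD (n = 5). Slc34a1 sits lower in the Hyp groups (means 11497 and 11879) than in the normal groups (13814 and 15561), and Pth1r likewise (3274 and 3413 against 4956 and 5345).

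The first question was whether a low phosphate diet changed these transcripts. In normal mice none of the 6 probe sets passed the threshold, where 0.184% of all probe sets were called. None of the 6 had an unadjusted limma p under 0.05 either, as 8.56% of all probe sets had. The mean of Slc34a1 was 13814 ± 1874 in control pools and 15561 ± 1465 in low phosphate pools (SD, n = 5 each), which differ by 0.18 ± 0.11 (SE, 95% interval -0.06 to 0.42, adjusted p = 0.727). Pdzk1ip1 went from 7964 ± 510 to 9030 ± 450 (SD, n = 5 each), a difference of 0.18 ± 0.10 (SE, interval -0.03 to 0.39, adjusted p = 0.657). Pdzk1 differed by -0.12 ± 0.10 at 97288 (interval -0.34 to 0.09) and by -0.23 ± 0.24 at 97287 (interval -0.73 to 0.27). Slc20a1 differed by -0.05 ± 0.13 (interval -0.33 to 0.23) and Pth1r by 0.03 ± 0.18 (interval -0.34 to 0.40).

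Slc34a1 and Pdzk1ip1 were higher in all 5 pairs of normal mice, as 7.13% of probe sets were, and Pdzk1 97288 was lower in all 5, as 7.00% were. With only the 2 diets of normal mice and the array set as a block, a fit chosen after the data were seen, the values stayed at 0.18 ± 0.08 (adjusted p = 0.469) for Slc34a1 and 0.18 ± 0.08 (adjusted p = 0.458) for Pdzk1ip1. At this number of arrays a change of 0.5 on the log2 scale was recovered in 31.2% of simulated cases and a change of 1 in 85.7%, so differences of the size seen here would mostly not be called.

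In Hyp mice the diet again moved none of the 6 past the threshold, where 0.150% of all probe sets were called. None of them had an unadjusted limma p under 0.05, as 4.59% of all probe sets had. Slc34a1 averaged 11497 ± 1437 and 11879 ± 1872 (SD, n = 5 each), a difference of 0.04 ± 0.11 (interval -0.20 to 0.28). Pdzk1ip1 differed by 0.10 ± 0.10 (interval -0.12 to 0.31), Pth1r by 0.04 ± 0.18 (interval -0.34 to 0.41) and Slc20a1 by 0.05 ± 0.13 (interval -0.23 to 0.33). Pdzk1 differed by -0.07 ± 0.10 at 97288 and by -0.17 ± 0.24 at 97287.

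The genotype by diet interaction asks whether Hyp mice answered the diet differently. None of the 6 passed it, where 0.0460% of all probe sets were called, and none had an unadjusted limma p under 0.05, as 3.23% had. For Slc34a1 the diet difference in Hyp minus that in normal mice was -0.14 ± 0.16 (interval -0.48 to 0.20, adjusted p = 1), and for Pdzk1ip1 it was -0.08 ± 0.14 (interval -0.39 to 0.22). The 5 of 5 pairs in normal mice and 3 of 5 in Hyp mice for Slc34a1 are thus counts within each genotype and not a shown difference between them. Averaged over genotypes, the diet comparison called none of the 6, where 0.472% of all probe sets were called, and none had an unadjusted limma p under 0.05, as 9.75% had. The value closest to the threshold was Pdzk1ip1 at 0.14 ± 0.07 (interval -0.01 to 0.29, adjusted p = 0.551).

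**Figure D2:**
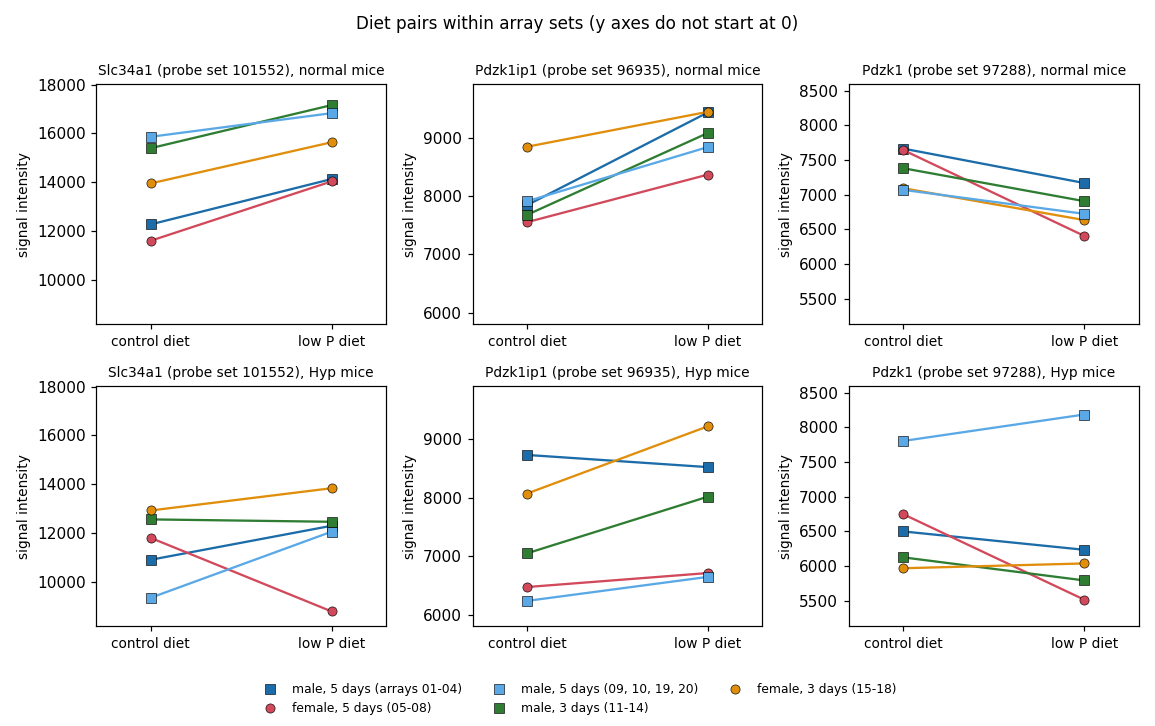
Intensity on control and low phosphate diet for Slc34a1, Pdzk1ip1 and Pdzk1 97288, with a line joining the 2 pools of the same genotype and array set (5 lines per panel; y axes do not start at 0). In normal mice all 5 lines rise for Slc34a1 and Pdzk1ip1 and all 5 fall for Pdzk1 97288, while in Hyp mice the lines run both ways.

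The second question was how Hyp kidneys differed from normal ones. Pth1r was called lower in Hyp mice when both diets were averaged, the only 1 of 6 probe sets to pass, where 1.28% of all probe sets were called and 0.506% were called lower. At an unadjusted limma p under 0.05 it was 3 of 6, beside 15.0% of all. Its Hyp pools averaged 3344 ± 998 and its normal pools 5151 ± 1551 (SD, n = 10 each), a log2 difference of -0.61 ± 0.12 (SE, interval -0.87 to -0.34, adjusted p = 0.0224), or 0.657 of the normal level. On control diet the difference was -0.61 ± 0.18 (adjusted p = 0.296) and on low phosphate diet -0.60 ± 0.18 (adjusted p = 0.246), neither of which passed. Within array sets Pth1r was lower in Hyp pools in 8 of 8 pairs, by 0.07 to 1.06, and 1.38% of probe sets were lower in all 8.

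The size of the Pth1r difference rested partly on pools with no partner in their set. Without arrays 09, 10, 19 and 20 it was -0.48 ± 0.13 (adjusted p = 0.149), and it was -0.48 ± 0.12 in the fit blocked on array set (adjusted p = 0.099), so the call ended in both. These are not separate checks, since both fits take the genotype difference only from array sets that hold both genotypes. The call also ended without array 02 (adjusted p = 0.0504) or array 12 (adjusted p = 0.0506), both normal pools on low phosphate diet. Without the female pools at 5 days it was -0.66 ± 0.13 (adjusted p = 0.0325).

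Slc34a1 came next, with 11688 ± 1586 over Hyp pools and 14687 ± 1834 over normal pools (SD, n = 10 each), a difference of -0.33 ± 0.08 (interval -0.50 to -0.16) that just missed the threshold at an adjusted p of 0.0542. It was called under 4 of 14 other settings, with adjusted p-values of 0.0156 to 0.0314 in those 4 and up to 0.787 in the rest. Of 20 fits that each left out 1 array, it was called in 1, without array 07, a Hyp pool (adjusted p = 0.0321). It was not called in the fit blocked on array set (-0.26 ± 0.08, adjusted p = 0.188). On control diet the difference was -0.26 ± 0.11 (interval -0.50 to -0.02, adjusted p = 0.557) and on low phosphate diet -0.40 ± 0.11 (interval -0.64 to -0.16, adjusted p = 0.232). In 7 of 8 pairs within array sets the Hyp pool was lower, the exception being the female pair at 5 days on control diet, which differed by 0.02.

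The remaining members were lower in Hyp mice in the averages, and none passed. Pdzk1ip1 averaged 7571 ± 1070 against 8497 ± 722 (SD, n = 10 each), a difference of -0.17 ± 0.07 (interval -0.32 to -0.02, adjusted p = 0.274). Pdzk1 97287 differed by -0.33 ± 0.17 (interval -0.68 to 0.03) and Slc20a1 by -0.13 ± 0.09 (interval -0.33 to 0.07). Pdzk1 97288 differed by -0.13 ± 0.07 (interval -0.28 to 0.02, adjusted p = 0.397). Its Hyp pool was lower in 8 of 8 pairs within sets, by 0.14 to 0.27, as was found for 1.38% of all probe sets tested. These pairs leave out arrays 09 and 10, which held its highest Hyp values (7803.6 and 8185.1). In the fit blocked on array set the difference of Pdzk1 97288 was -0.22 ± 0.06 (adjusted p = 0.099). On the 2 diets taken singly, none of the 6 was called: 2 had an unadjusted limma p under 0.05 on control diet (0.253% of all probe sets called, 8.55% at the unadjusted p) and 3 on low phosphate diet (0.357% and 9.47%).

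Levels of proximal tubule markers in Hyp mice stand beside these values. Of the 20 probe sets of 18 markers, 0 were called higher and 1 lower in Hyp mice over both diets, the glucose transporter gene Slc2a2 at -0.34 (adjusted p = 0.0122). In that list 14 of 20 values were negative, and the median was -0.05, against 0.02 for all probe sets tested. An unadjusted limma p under 0.05 was found for 7 of the 20, beside 15.0% of all probe sets. Of all probe sets 1.28% were called in this comparison, and 0.506% were called lower. Among markers of the thick ascending limb and distal tubule 2 of 12 probe sets were called higher (Kcnj1 at 0.33 and Slc12a3 at 0.33) and 1 lower (Calb1 at -0.71), and among those of the collecting duct 1 of 4 was called higher (Slc4a1 at 0.35). Lists for glomerulus, endothelium, macrophages and lymphocytes, fibroblasts, red blood cells and adipocytes had 0 calls by limma, with 0 to 4 probe sets each at an unadjusted p under 0.05, and medians of -0.06 to 0.37. The part of cell makeup in the genotype differences was not tested. Actin ratios were 1.23 to 2.55 in Hyp and 1.22 to 2.61 in normal pools.

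**Figure D3:**
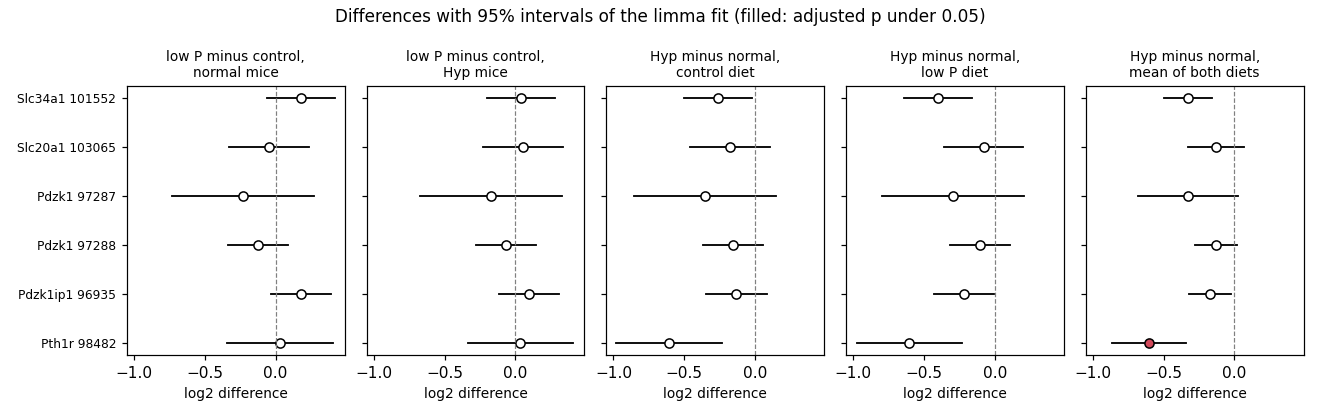
Log2 differences of the 6 probe sets with 95% intervals of the limma fit, in 5 comparisons (low phosphate minus control diet in each genotype, and Hyp minus normal mice on each diet and averaged). Both diet panels have points within 0.23 of 0, all points in the genotype panels lie below 0, and the single filled point is Pth1r at -0.61.

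Time on the diets was the next comparison, taken over all groups, controls included. Slc34a1 and Pth1r were lower at 5 than at 3 days, 2 of 6 probe sets where 40.9% of all probe sets were called (20.2% lower and 20.7% higher), a share near the background. Slc34a1 averaged 12487 ± 2398 at 5 days (SD, n = 12) and 14238 ± 1686 at 3 days (SD, n = 8), a difference of -0.23 ± 0.08 (SE, adjusted p = 0.0366). Pth1r averaged 3824 ± 1648 and 4882 ± 1292, a difference of -0.57 ± 0.13 (adjusted p = 0.00276). The model differences give males and females equal weight, which the plain means do not, since most pools at 5 days were male. For Pdzk1 97287 the plain means were 1656 at 5 days and 1614 at 3 days, opposite in direction to its model difference of -0.28. The other 4 probe sets differed by -0.28 to 0.08 and did not pass, though Pdzk1ip1 (-0.14, adjusted p = 0.131) was called in the fit blocked on array set (-0.16, adjusted p = 0.0267). Days were carried by separate array sets, and the actin ratio was 1.22 to 2.61 at 5 days (median 1.79) and 1.39 to 1.98 at 3 days (median 1.53); the part of RNA quality and array set in these differences was not tested.

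The difference by day was also taken within each sex. In females alone Pth1r differed by -0.81 ± 0.16 (adjusted p = 0.0116) and Slc34a1 by -0.30 ± 0.14 (adjusted p = 0.147), and in males alone by -0.33 ± 0.16 (adjusted p = 0.32) and -0.16 ± 0.11 (adjusted p = 0.479). In females each duration was a single array set, so this fit cannot separate days from array set. Its p-values treat arrays of the same set as independent. The female set at 5 days had actin ratios of 1.74 to 2.61, against 1.22 to 1.98 on all other arrays. Its median rank correlations were 0.895 to 0.934, against 0.943 to 0.969. The part of array set and RNA quality in the female values was not tested. The difference between the sexes was not tested. Slc34a1 lost its call when any 1 of 10 arrays was left out, 4 fed for 5 days (01, 02, 05 and 08) and 6 fed for 3 days (11, 12, 13, 14, 17 and 18), with adjusted p-values of up to 0.0925.

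Whether the diet response itself changed with time was tested by a diet by days term, which called 0 of the 6 and 0 of all 8695 probe sets (0%). At an unadjusted limma p under 0.05 there were 291 (3.35%), with 0 of the 6 members. Slc34a1 differed by 0.01 ± 0.17 (interval -0.35 to 0.37) and Pth1r by -0.16 ± 0.26 (interval -0.71 to 0.39). In normal mice the diet difference of Slc34a1 was 0.16 ± 0.13 at 3 days and 0.19 ± 0.18 at 5 days, and that of Pdzk1ip1 was 0.17 ± 0.12 and 0.19 ± 0.17. In Hyp mice Slc34a1 differed by 0.04 ± 0.13 at 3 days and 0.04 ± 0.18 at 5 days, and Pdzk1ip1 by 0.19 ± 0.12 and 0.04 ± 0.17.

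Pth1r and 1 of the 2 Pdzk1 probe sets differed by sex, though values of males and females overlapped. Both were higher in males, 2 of 6 where 16.6% of all probe sets were called, 8.67% higher and 7.95% lower in males. As with days, the sexes were carried by separate array sets. Pth1r averaged 4855 ± 1561 in males (SD, n = 12) and 3335 ± 1136 in females (SD, n = 8), a difference of 0.59 ± 0.13 (adjusted p = 0.00608). Pdzk1 97287 averaged 1983 ± 546 and 1123 ± 454, a difference of 0.81 ± 0.18 (adjusted p = 0.00548). Pdzk1 97288, which the annotation gives to the same gene, averaged 6963 ± 726 and 6506 ± 678 and differed by 0.08 ± 0.07 (interval -0.08 to 0.23), so the probe sets of this gene disagreed. Slc34a1 (0.09 ± 0.08), Pdzk1ip1 (-0.01 ± 0.07) and Slc20a1 (-0.16 ± 0.10) did not pass.

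The sex difference was also taken at each duration, since actin ratios in 3 of the 4 female pools at 5 days were above those of all other arrays. Among arrays at 5 days Pdzk1 97287 differed by 1.26 ± 0.23 (adjusted p = 0.00398) and Pth1r by 0.83 ± 0.18 (adjusted p = 0.00842). Among arrays at 3 days the values were 0.37 ± 0.09 (adjusted p = 0.191) and 0.35 ± 0.12 (adjusted p = 0.288). The part of RNA quality and array set in the difference was not tested.

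**Figure D4:**
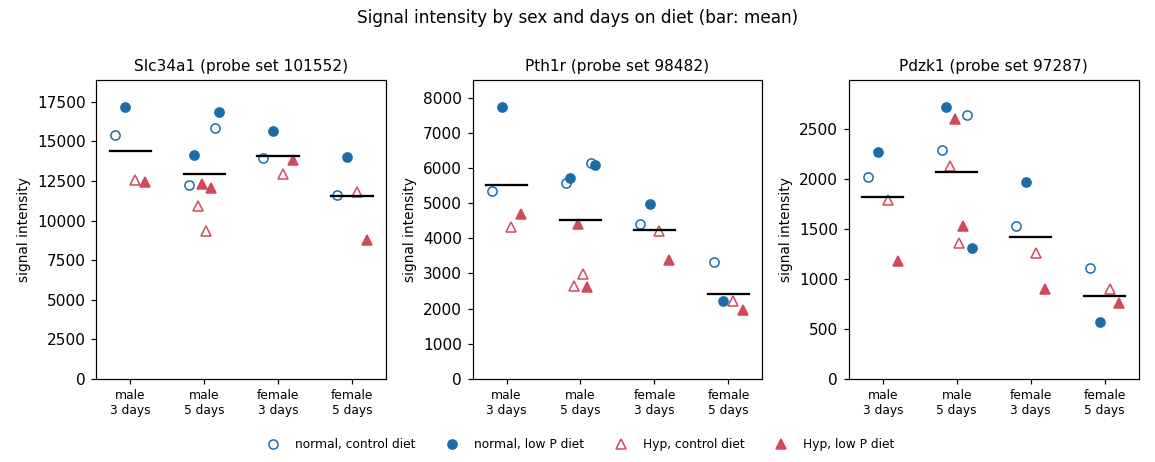
Intensity (from 0) of Slc34a1, Pth1r and Pdzk1 97287 by sex and days on diet; circles are normal and triangles Hyp pools, filled symbols low phosphate diet, and the bar is the mean of the stratum (4 arrays, or 8 for males at 5 days). The female pools at 5 days have the lowest means of Pth1r (2426) and Pdzk1 97287 (832).

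Members were also compared with each other from array to array, after the means of group and array set had been removed, which left 11 residual degrees of freedom over 20 arrays. Of 14 pairs of probe sets of different genes, 1 passed by permutation: Slc34a1 with Pdzk1 97288 (Pearson r = 0.705, permutation p = 0.00068, adjusted p = 0.00952, Spearman rho = 0.598, permutation p = 0.00617, adjusted p = 0.0718). The permutation treated the 20 residuals as independent, though only 11 degrees of freedom remained. Its p-values are therefore too small, and the pass is not firm evidence of a correlation. Without the 2 arrays farthest from the median of Slc34a1, r was 0.449, and with group means alone removed it was -0.16, so the relation depends on removing the array sets. Without arrays 05 to 08 r was 0.773. Slc34a1 with Pth1r gave r = 0.0337, and r = 0.618 with group means alone removed. Probes of one array share its labelling and scaling.

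The probe sets whose profile over the 20 arrays was most like each member, with stratum means removed and group differences kept, are given as a description. For Slc34a1 they were Abcd4 (r = 0.88), Timm17a (0.87) and Pcbp2 (0.85), and Pth1r ranked 111th (r = 0.71). For Pth1r they were Cyba, a subunit of the NADPH oxidase (0.89), Slc37a4, the glucose-6-phosphate transporter (0.83) and Prss8, the protease prostasin (0.83). For Pdzk1ip1 they were Gtf2i (0.94), Alpl, the alkaline phosphatase gene (0.93) and Prodh2 (0.89). Pdzk1 97288 was most like Ptprd (0.87) and 97287 most like Cyb5b (0.78), and none of the first 5 was shared by these 2 probe sets.

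The members also belong to wider lists of genes of phosphate handling. Of 8 probe sets of 7 phosphate transporter genes, Slc34a1 and Slc20a1 among them, 0 were called by limma in any comparison of diet or genotype. From 0 to 3 had an unadjusted limma p under 0.05, beside 3.23% to 15.0% of all probe sets. In Hyp mice over both diets 6 of 8 were negative (median -0.18, against 0.02 for all probe sets tested). Slc17a1, a sodium-phosphate and organic anion transporter, read 4674 ± 1222, 4589 ± 876, 4029 ± 848 and 3861 ± 864 (SD, n = 5) over the control and low phosphate pools of normal mice and the control and low phosphate pools of Hyp mice, in that order. Of 21 probe sets of 17 genes for PDZ scaffold proteins and their membrane partners, 1 passed for genotype over both diets, beside 1.28% of all. It was Slc26a1, a sulfate transporter, which fell from 829.8 ± 98.7 and 805.7 ± 199.95 in normal mice to 578.0 ± 137.2 and 468.3 ± 76.0 in Hyp mice, by 0.62 on the log2 scale over both diets (adjusted p = 0.00028). The scaffold gene Slc9a3r1 differed by -0.03 between genotypes (adjusted p = 0.895).

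In the list of parathyroid hormone receptor signalling, of 37 probe sets of 25 genes, Pth1r was the 1 called lower in Hyp mice and 2 were called higher over both diets: Ramp2, a receptor partner protein (0.42, adjusted p = 0.0296), and Crem, a cAMP-response transcription factor (0.37, adjusted p = 0.0476; another of its probe sets differed by 0.22, adjusted p = 0.341). The median of this list was 0.08. Of 23 probe sets of 17 genes for hormones, enzymes and receptors of phosphate balance, 1 was called higher and 4 lower in Hyp mice. Among all probe sets tested, 1.28% were called for genotype over both diets and 0.506% were called lower. The vitamin D-degrading enzyme gene Cyp24a1 was higher (1.86, adjusted p = 0.00028), and Kl, the FGF23 co-receptor klotho (-0.47, adjusted p = 0.00353), Alpl (-0.58, adjusted p = 0.0232), Fgfr4 (-0.67, adjusted p = 0.0368) and the vitamin D-activating enzyme gene Cyp27b1 (-1.09, adjusted p = 0.00262) were lower. Cyp27b1 also differed between the diets of Hyp mice (-1.28, adjusted p = 0.0439) and in the interaction (-2.01, adjusted p = 0.0431). For the diets of normal mice limma called 0 probe sets in these 4 lists, with 0, 0, 2 and 4 at an unadjusted p under 0.05. Of all probe sets tested, 0.184% were called there and 8.56% had such an unadjusted p. These lists were not chosen independently of the data.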

How the data were processed

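Kidney RNA was measured on 20 oligonucleotide arrays, with RNA pooled from 3 mice on each, per the labels. Deposited values were 1 signal intensity per probe set on a linear scale, scaled by the authors to a common trimmed mean, as the values show; they were made with software not given in the sources used here. The table held 12488 probe sets, of which 66 were controls. No value was rescaled. Each intensity was turned into log2(intensity + 38), the offset being the 20th percentile, which understates the fold of dim genes; probe sets with a mean below the 30th percentile were left out, leaving 8695. limma 3.58.1 in R 4.3.3 was fitted to all arrays with group and stratum of sex and days as terms (13 residual degrees of freedom) and empirical Bayes moderation, and two-sided p-values were adjusted by Benjamini-Hochberg within each of 10 comparisons at 0.05. No array was left out of the main values. P-values measure the spread between pools, not single mice; the number of arrays limits precision.

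Gene names came from the platform annotation, and all 5 gene numbers matched RefSeq. All members were named; other genes were those past the threshold in fixed pathway and marker lists, and the 5 probe sets most like each member. The members and lists were chosen with earlier results of these data known. The fit was tested on simulated data with 200 changed probe sets in each of 6 draws; for genotype averaged over diets, 64.2% of changes of 0.5 and 95.3% of changes of 1 were recovered. The alternatives were other offsets, normalizations, filters, variance models, covariates, weights and subsets of arrays.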

Additional observations from a re-analysis of the deposited data

Results flagged for a closer look

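In 2 of the 24 combinations of a probe set and a group, 1 pool stood apart from the other 4 by more than the 95% limit of Dixon's gap test. Chance flags about 1 in 20 groups. Pdzk1 97288 read 8185.1 on array 10 in Hyp mice on low phosphate diet, where the other 4 pools lay between 5515.4 and 6234.4. Array 09, the control diet pool of the same set, was also the highest of its group (7803.6). Pdzk1ip1 read 8841.7 on array 15 in normal mice on control diet, where the other 4 pools lay between 7551.1 and 7908.7.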

How the results depend on the processing

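The 60 member differences were recomputed under each alternative, which gave 2016 values, of which 1897 kept the sign; the 119 changes of sign, in 26 results, were all in values not called, and the cause was not tested. No alternative called a member in a diet comparison, in the interaction or in genotype on a single diet. Over both diets the main count of 1 (Pth1r) became 2, with Slc34a1, under quantile normalization, a filter at the median, moderation with trend and robust variances, or array weights. It became 0 without terms for sex and days, with the array set as a block, without arrays 09, 10, 19 and 20, and in males, females, 3 days or 5 days alone, where fewer arrays enter; leaving out single arrays gave 0 to 2. For days, the count of 2 became 0 in males and 1 in females, 3 with the array set as a block (with Pdzk1ip1), and 1 to 2 without single arrays; for sex, 2 became 0 at 3 days. With group means alone removed, 3 correlations passed the permutation in place of 1, and Slc34a1 with Pdzk1 97288 turned to -0.16. These permutation p-values are too small as well, since the residuals were treated as independent. Days and sex could not be fitted without their own terms or without arrays 05 to 08. Title numbers, 1 per array, are not shared between groups and so pair no samples; pools were paired by array set instead, as a block. Signal over background is not given, so how far each member stood above it is not known.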

Other observations

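Genes of the same pathways differed by sex and by days. Both sex and days were carried by separate array sets, and the part of array set and RNA quality in these differences was not tested. In the list of PDZ scaffold proteins and their membrane partners 6 of 21 probe sets, Pdzk1 97287 among them, were called higher in males and 1 lower, beside 8.67% and 7.95% of all probe sets. They included Slc9a3r1, the brush border scaffold NHERF1 (0.34, adjusted p = 0.00856), and Slc22a12, the urate transporter (0.52, adjusted p = 0.00371), and the actin-linking gene Ezr was lower in males (-0.21, adjusted p = 0.0318). Between days, 9 of the 21 were called lower and 1 higher at 5 days, beside 20.2% and 20.7% of all probe sets. The 1 called higher was a probe set of Clcn3 (0.33), a gene whose other probe sets were among those called lower (-0.23 and -0.28). The phosphate and anion transporter gene Slc17a1 was higher in males at both of its probe sets (0.39, adjusted p = 0.0267, and 0.41, adjusted p = 0.00949).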
